A study of Homo sapiens with 27 samples.

Results

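Interferon-stimulated genes are the genes that cells switch on when they sense a virus or meet an interferon. A list of 45 of them, given by name, was followed through RNA-seq and ribosome profiling of IMR90, a strain of fibroblasts grown from fetal human lung that has a limited lifespan in culture. All 45 were found among the 60534 gene identifiers shared by the 27 libraries, 19307 of which matched a protein-coding gene. Ribosome profiling (Ribo-seq) sequences the stretches of mRNA that ribosomes shield from RNase, so a gene's Ribo-seq count depends on its mRNA and on the ribosomes that occupy it. The groups were untreated cycling cells, cells made quiescent by contact inhibition, cells made senescent by 15 Gy of ionizing radiation and harvested 10 days later, cells made senescent by 3 treatments with 50 µM etoposide over 10 days, and cycling cells exposed to 25 nM thapsigargin for 3 h. Etoposide traps topoisomerase II on DNA and breaks it, and thapsigargin blocks the pump that fills the endoplasmic reticulum with calcium. Each group had 3 libraries of each type, except that there were 2 cycling RNA-seq libraries and 2 thapsigargin libraries of each type. All groups are the same cell line, and the labels name no genetic change. The labels do not say that replicates came from separate cultures, so p-values measure the spread between these libraries, which may be technical.

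Cells detect foreign or misplaced nucleic acids with sensors such as MDA5 (the product of IFIH1) for double-stranded RNA and cGAS, which signals through STING, for DNA in the cytosol. The signal leads to type I interferon, whose receptor activates a complex that contains STAT2 and IRF9 (ISGF3) and binds an element called the ISRE in the promoters of interferon-stimulated genes. The products bind viral RNA, degrade it, block viral entry or release, attach the ubiquitin-like protein ISG15 to other proteins, or feed back on the pathway. DNA damage and senescence are known to engage the cGAS-STING route in fibroblasts.

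The ISRE letters were looked for in RefSeq promoter windows (GRCh38.p14, 250 bases before to 50 after a start), because this element is the site that ISGF3 binds. The ISRE was searched on both strands as GAAA, then NN (any base at each N), then GAAA. It stood in at least 1 window of 23 of the 35 members with an entry (65.7%), and in 28 of their 47 windows (59.6%), against 1255 of all 35116 windows of that length (3.57%). The motif TTCNNNGAA, the letters of another interferon-response element called GAS, was in 13 of the 47 windows (27.7%) against 7.66% of all windows. The letters of these motifs can overlap each other. STAT2, IRF1, TRIM25, UBE2L6, SAMD9L, SAMHD1, HERC6, XAF1, OAS1, IRF9, CMPK2 and IFI35 had no match to the ISRE letters in these windows, though those of IRF1, IRF9, OAS1 and IFI35 held TTCNNNGAA, and MX2, STING1, OAS2, TRIM22, CGAS, IFIT2, USP18, IRF7, OASL and DHX58 had no entry. A match is a run of letters and not a measured binding site. Stretches of 30 bases from these windows are shown for members whose levels the results turn on, with the motif or its reverse complement in capitals and the strand of the gene given.
ISG15, chr1:1013380-1013409, plus strand: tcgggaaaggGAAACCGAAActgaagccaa
HERC5, chr4:88457035-88457064, plus strand: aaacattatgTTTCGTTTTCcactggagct
IFIT1, chr10:89392510-89392539, plus strand: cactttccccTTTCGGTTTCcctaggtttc
IFIT3, chr10:89332468-89332497, plus strand: gttccatcagTTTCACTTTCctttcccctt
OAS3, chr12:112938321-112938350, plus strand: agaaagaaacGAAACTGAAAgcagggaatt
SAMD9, chr7:93118096-93118125, minus strand: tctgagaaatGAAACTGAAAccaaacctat
DTX3L, chr3:122564322-122564351, plus strand: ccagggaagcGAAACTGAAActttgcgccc
PARP9, chr3:122564322-122564351, minus strand: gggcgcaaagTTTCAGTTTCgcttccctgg
The DTX3L and PARP9 lines are the same interval read from opposite strands: these genes start head to head around 1 copy of the motif. The motif stands in windows of genes that were higher in senescent cells (ISG15, HERC5, and in RNA-seq of irradiated cells IFIT3). It also stands in windows of genes that were lower (OAS3, SAMD9, and in etoposide-treated cells PARP9 and DTX3L), as their values show.

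RNA-seq libraries held 20635503 to 57119841 gene counts and Ribo-seq libraries 1936976 to 19996104, with the thapsigargin Ribo-seq libraries lowest at 1936976 and 2044900. The cycling RNA-seq libraries differed from each other, with 13.2% and 33.4% of reads multimapping. Levels are given in CPM, a gene's counts relative to its library's scaled total, and can be compared between states but not between genes, since gene length was not used. The 8 fibroblast markers together held 8873 to 14322 CPM in the RNA-seq libraries. In Ribo-seq they held 35488 to 37193 CPM in cycling, 17343 to 36954 in quiescent, 22402 to 31811 in senescent and 12393 to 12946 in thapsigargin-treated libraries, and their part in the results was not tested. MKI67, a marker of dividing cells, had 144 and 167 CPM in the cycling RNA-seq libraries, 4.99 to 18.2 CPM in the senescent ones, and 41.3, 148 and 53.4 CPM in the quiescent replicates 1, 2 and 3. Quiescent replicate 2 thus had a cycling level of MKI67. Arrested, below, means the groups labelled quiescent or senescent, with this library included. Counts that changed by over 1.5 times without it are given with both values. The thapsigargin libraries stood apart in ways other than treatment. Their RNA-seq reads were 1.35% to 1.40% unmapped against 27.8% to 40.6% elsewhere, and their Ribo-seq reads were 65.2% to 66.9% multimapping against 19.8% to 31.9% elsewhere, with a different gene list. For these libraries treatment and batch cannot be told apart.

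A gene is called here when its adjusted p in edgeR's quasi-likelihood test is under 0.05, adjusted over all genes tested in that library type. In RNA-seq 43 members had enough counts for the test (OASL and RSAD2 did not), and in Ribo-seq 38 did (BST2, CMPK2, IFI27, IRF9, OAS1, OAS2 and RSAD2 did not). Because these are bulk samples, fewer expressing cells and less RNA per cell cannot be told apart. The 4 comparisons with cycling cells share the cycling libraries, so their calls are not independent of each other.

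In senescent cells the interferon-stimulated genes did not move as a block. In irradiated cells 12 of the 43 members rose in RNA-seq and 5 fell, where 16.2% of all genes tested rose and 18.8% fell. DHX58, HERC5, HERC6, IFIT2, IFIT3, IRF1, MX1, OAS2, SAMD9L, STAT2, TRIM22 and UBE2L6 rose, and CGAS, IRF9, OAS3, SAMD9 and STING1 fell. The members' median log2 fold change was 0.30, against 0.03 over all genes. In etoposide-treated cells 8 rose (DHX58, HERC5, IFI44L, IFIT2, IRF1, ISG15, STAT2 and TRIM22) and 8 fell (CGAS, DTX3L, IRF9, OAS3, PARP9, SAMD9, STING1 and USP18), close to the shares over all genes of 16.8% and 17.8%, and their median was -0.05 against 0.00. Without cycling RNA-seq replicate 1, which leaves 1 cycling library, fewer members and fewer of all genes were called in both comparisons. Ribo-seq has 3 cycling libraries and made 7 higher and 5 lower calls of 38 members after irradiation, against 17.2% and 22.6% of all genes (39.8% in either direction). After etoposide it made 8 higher and 7 lower calls, against 16.4% and 17.6% of all genes.

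Members called in RNA-seq and in Ribo-seq moved the same way in both. After irradiation DHX58, HERC5, IFIT2, IRF1, STAT2 and TRIM22 were called higher in both, which is 6 of the 12 higher calls in RNA-seq and 6 of the 7 in Ribo-seq, and OAS3, SAMD9 and STING1 were called lower in both. After etoposide HERC5, IFI44L, IFIT2, IRF1, ISG15, STAT2 and TRIM22 were higher in both, 7 of the 8 higher calls of each library type, and DTX3L, OAS3, PARP9, SAMD9 and STING1 were lower in both. The labels say that 1 lysate was divided between the library types, so the types are not independent samples. The same overlap was not computed over all genes, so these shared calls have no background beside them.

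**Figure D1:**
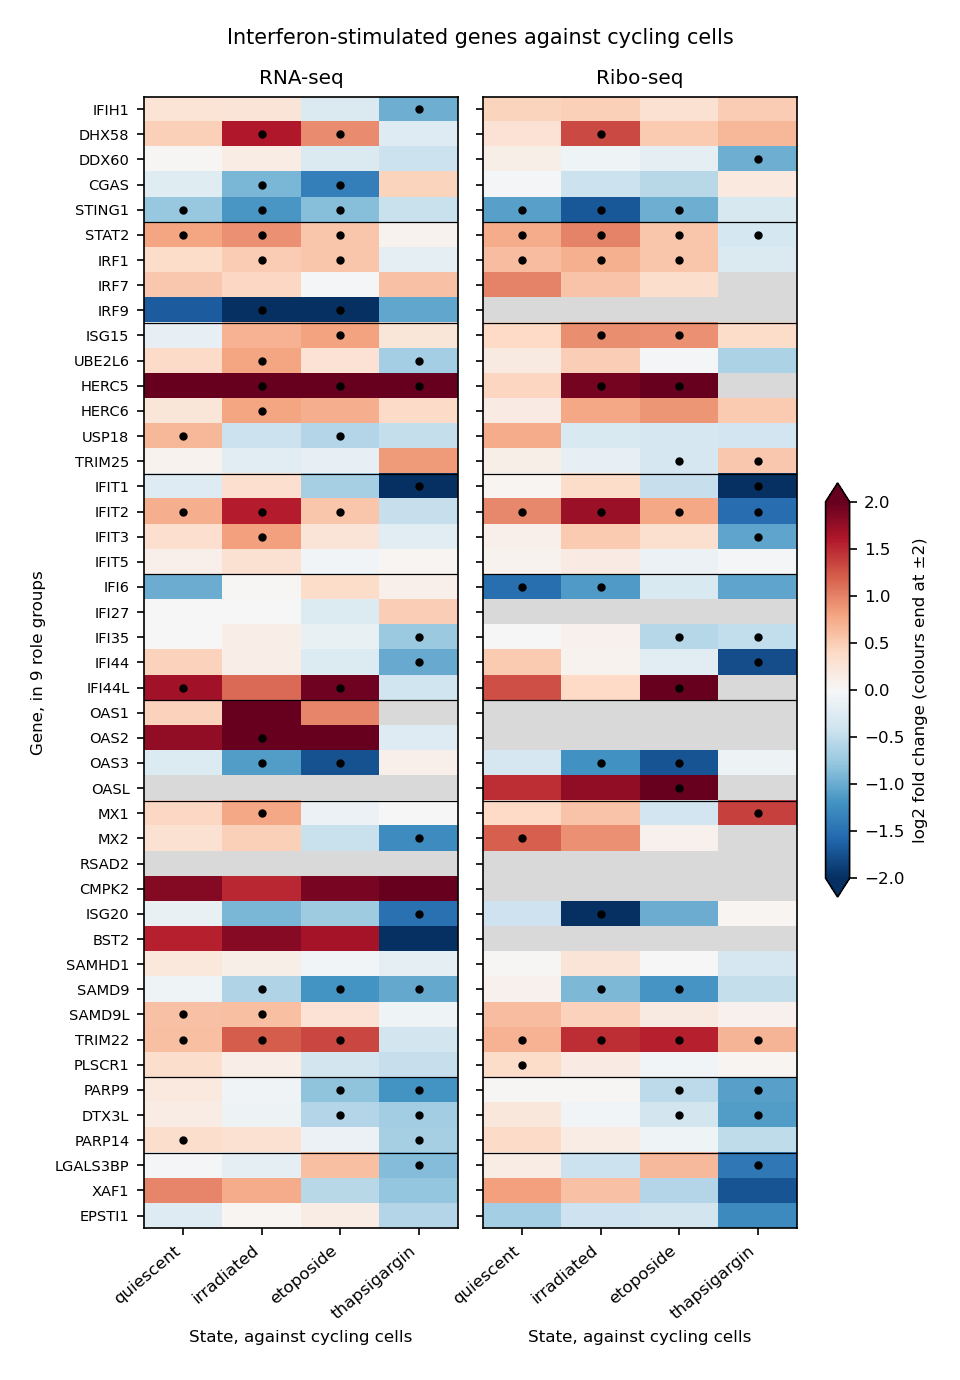
Log2 fold change of each member (rows, in 9 role groups separated by lines) in 4 states against cycling cells (columns), in RNA-seq on the left and Ribo-seq on the right. Red is higher and blue lower than in cycling cells, and a black dot marks an adjusted p under 0.05. Grey marks a member not tested or with 0 counts in at least 1 of the groups compared, and carries no dot. IRF7 in the Ribo-seq thapsigargin column, though called, is grey for this reason. TRIM22 and STAT2 are dotted red and STING1 is dotted blue in the quiescent, irradiated and etoposide columns of both panels, and the thapsigargin columns are mostly blue.

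The transcription factors were split. STAT2, a subunit of ISGF3, had 127 and 146 CPM in the cycling RNA-seq libraries and 257, 259 and 259 CPM in the irradiated ones, with etoposide-treated cells at 206, 181 and 212 CPM and quiescent cells at 234, 236 and 238 CPM. All arrested libraries lay above both cycling libraries. Its log2 fold change over cycling was 0.92 ± 0.11 (SE, adjusted p = 2.35e-05) after irradiation, 0.55 ± 0.11 (SE, adjusted p = 0.0013) after etoposide and 0.79 ± 0.11 (SE, adjusted p = 0.000744) in quiescence. Ribo-seq levels followed, from 212 to 257 CPM in cycling cells to 452 to 458 CPM in irradiated cells, a log2 fold change of 1.00 ± 0.10 (SE, adjusted p = 4.11e-06), and to 314 to 355 CPM in etoposide-treated cells, at 0.56 ± 0.10 (SE, adjusted p = 0.000538). STAT2 was called in each of these comparisons under every alternative tried. IRF1, an activator that interferon itself induces, had footprints of 41.1, 37.4 and 39.9 CPM in cycling and 67.2, 56.4 and 57.6 CPM in quiescent cells. The values were 63.7, 58.9 and 72 CPM after irradiation and 55.4, 57.7 and 60.6 CPM after etoposide. The arrested libraries did not overlap the cycling ones, with Ribo-seq log2 fold changes of 0.61 ± 0.12 (SE, adjusted p = 0.00359), 0.72 ± 0.13 (SE, adjusted p = 0.000605) and 0.55 ± 0.13 (SE, adjusted p = 0.00396) in that order. Its RNA rose by 0.51 ± 0.15 (SE, adjusted p = 0.0194) after irradiation and 0.56 ± 0.15 (SE, adjusted p = 0.0122) after etoposide on the log2 scale. The first of these calls was lost without cycling replicate 1 or 2 or irradiated replicate 1 or 2 (adjusted p of up to 0.159), and the second was lost without cycling replicate 2 (adjusted p of up to 0.12).

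IRF7, which drives the later wave of interferon genes, was not called against cycling in any arrested state. Its RNA had 3.14 and 3.53 CPM in cycling and 5.87, 5.32 and 3.27 CPM in quiescent libraries. In irradiated libraries there were 5.12, 4.26 and 3.89 CPM and in etoposide-treated libraries 3.53, 3.13 and 3.05 CPM. Against quiescent cells the etoposide value was lower, at -0.58 ± 0.22 (SE, adjusted p = 0.0455), a call lost under 9 of 12 alternatives (adjusted p of up to 0.172). IRF9, the DNA-binding subunit of ISGF3, was counted at most 25 times in any RNA-seq library and once in all Ribo-seq libraries together, and reads that overlap several genes were not counted, so its level is uncertain. The counted values were 0.913 and 1.04 CPM in the cycling libraries, 0.599, 0.302 and 0 CPM in the quiescent, 0, 0.117 and 0.197 CPM in the irradiated and 0, 0.0295 and 0.0539 CPM in the etoposide-treated ones. The irradiated libraries gave a log2 fold change over cycling of -3.18 ± 0.93 (SE, adjusted p = 0.0168), lost without cycling replicate 1 or 2 or irradiated replicate 1 or with the replicate block (adjusted p of up to 0.0668). The etoposide-to-cycling ratio from 3 against 45 counts was 0.0312 (exact 95% interval 0.00621 to 0.0973), and this interval, like the others from counts below, covers counting error only.

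Among the members that sense nucleic acids, RNA of STING1 and CGAS was called lower in both senescent states, and that of no RNA-sensing helicase was. Only the STING1 calls held under every alternative and were also made in footprints. STING1, the adaptor that relays cGAS activity, had 20.8 and 23.7 CPM in the cycling RNA-seq libraries, 12.2, 16.1 and 11.1 CPM in the quiescent, 10, 10.8 and 8.96 CPM in the irradiated and 11.8, 12.5 and 12.7 CPM in the etoposide-treated ones. Every arrested library was below both cycling libraries. The log2 fold change was -1.16 ± 0.20 (SE, adjusted p = 0.000476) after irradiation and -0.85 ± 0.19 (SE, adjusted p = 0.00439) after etoposide, and both held under every alternative. In quiescent cells it was -0.76 ± 0.20 (SE, adjusted p = 0.0183), a call lost without cycling replicate 1 or 2 or quiescent replicate 1 or with only these states in the fit (adjusted p of up to 0.137). The footprints fell as well, from 47.3, 49.8 and 57.5 CPM in cycling cells to 16.9, 16.2 and 14.6 CPM in irradiated cells, a log2 fold change of -1.69 ± 0.25 (SE, adjusted p = 0.000142). The STING1 footprint values in quiescent and etoposide-treated cells were 15.3, 28.3 and 29.4 CPM and 29.3, 23.5 and 25.5 CPM, changes of -1.08 ± 0.23 (SE, adjusted p = 0.00423) and -0.98 ± 0.23 (SE, adjusted p = 0.005). STING1 was thus lower in quiescent cells too, an arrest that cells can leave, though RNA-seq replicate 2 of that group had a cycling level of MKI67.

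CGAS, the enzyme that makes the messenger cGAMP from cytosolic DNA, had 10.7 and 6.85 CPM in cycling and 6.96, 6.42 and 8.87 CPM in quiescent RNA-seq libraries. Irradiation gave 4.09, 4.03 and 5.82 CPM and etoposide 3.91, 3.33 and 2.97 CPM. The etoposide libraries lay below all quiescent and cycling ones. Against cycling cells the log2 fold change was -1.37 ± 0.28 (SE, adjusted p = 0.0022) after etoposide and -0.92 ± 0.28 (SE, adjusted p = 0.0221) after irradiation. The first was lost without cycling replicate 1 (adjusted p of up to 0.0585), and the second was lost without cycling replicate 1 or irradiated replicate 1 or 2 (adjusted p of up to 0.295). The difference between etoposide-treated and quiescent cells, -1.12 ± 0.26 (SE, adjusted p = 0.0037), held under every alternative. CGAS footprints, 4.7 to 8.29 CPM in cycling, 3.14 to 5.62 CPM in irradiated and 3.11 to 5.03 CPM in etoposide-treated cells, gave no call.

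DHX58 encodes LGP2, a helicase that tunes the RNA sensors. Its RNA had 1.97 and 2.08 CPM in cycling and 6.48, 5.75 and 6.13 CPM in irradiated libraries, with 3.74, 3.89 and 4.05 CPM after etoposide and 4, 3.06 and 1.33 CPM in quiescence. The irradiated libraries were above all others of these states in RNA-seq and in Ribo-seq, where they had 5.09, 7.18 and 5.71 CPM against 1.76, 2.6 and 2.67 CPM in cycling cells. The log2 fold change of irradiated over cycling cells was 1.60 ± 0.34 (SE, adjusted p = 0.00279) in RNA-seq and 1.32 ± 0.31 (SE, adjusted p = 0.00396) in Ribo-seq, each called under every alternative. After etoposide the RNA value was 0.95 ± 0.34 (SE, adjusted p = 0.0464), lost under 5 of 11 alternatives (adjusted p of up to 0.205). IFIH1, the sensor MDA5, had 5.5 to 5.91 CPM in cycling, 6.02 to 8.42 CPM in irradiated and 3.27 to 5.45 CPM in etoposide-treated RNA-seq libraries and no call in these states, and DDX60, a helicase that assists the RNA sensors, had 7.67 to 13.6 CPM over all RNA-seq libraries without thapsigargin and no call there.

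**Figure D2:**
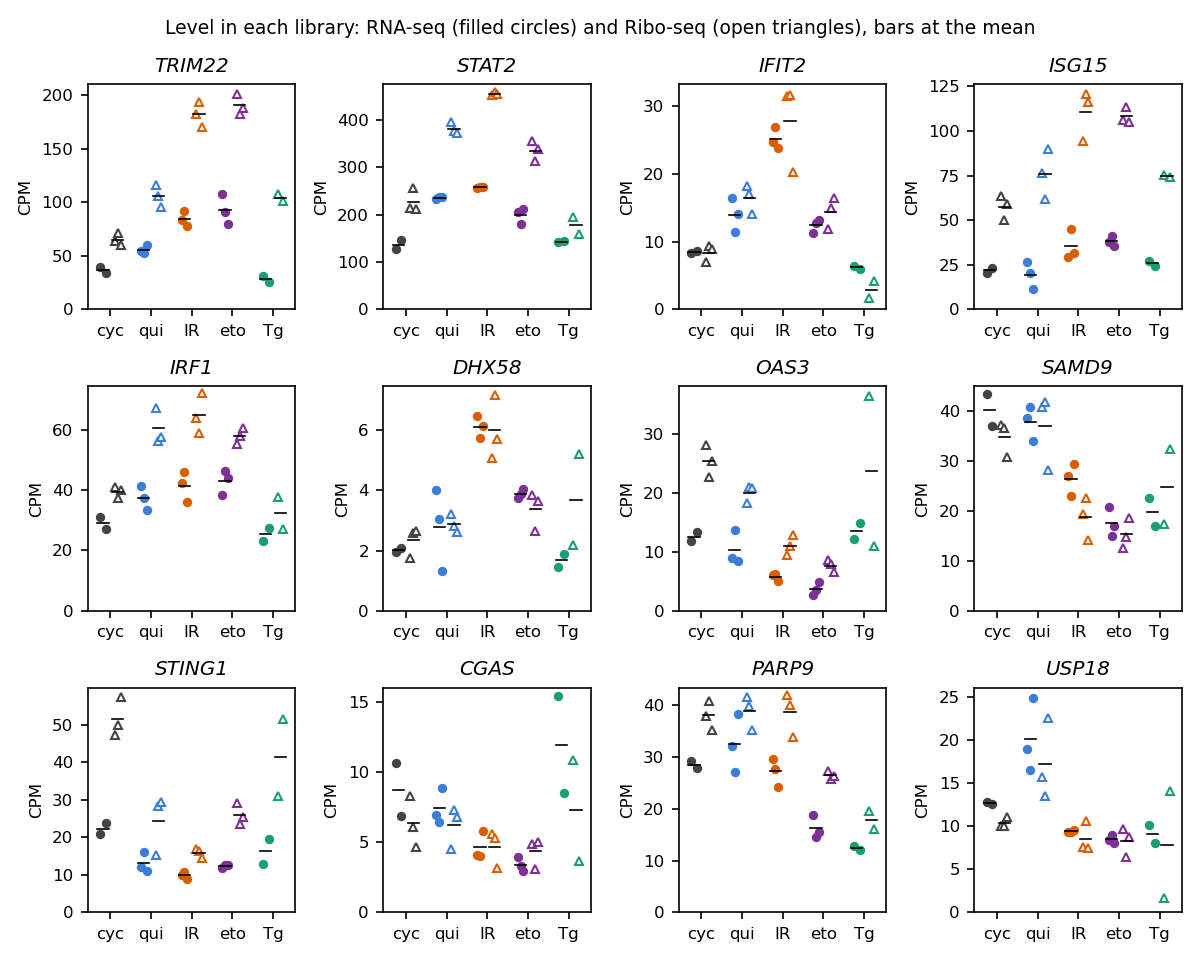
CPM of 12 members in every library by state (cyc, cycling; qui, quiescent; IR, irradiated; eto, etoposide; Tg, thapsigargin), with RNA-seq as filled circles, Ribo-seq as open triangles and a bar at each group mean, on linear axes that start at 0. TRIM22 is highest in both senescent states, STAT2 and IFIT2 in irradiated cells, and OAS3 and SAMD9 are lower in both senescent states than in cycling and quiescent cells.

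The system that attaches ISG15 to proteins moved upward at the modifier and not at the protease. ISG15 footprints were 63.6, 50 and 59.2 CPM in cycling and 76.2, 61.8 and 89.8 CPM in quiescent cells. Irradiated cells had 94.3, 121 and 116 CPM and etoposide-treated cells 106, 113 and 105 CPM. Both senescent groups lay above every cycling and quiescent library, and the log2 fold changes over cycling were 0.93 ± 0.14 (SE, adjusted p = 0.000195) and 0.91 ± 0.14 (SE, adjusted p = 0.000227), held under every alternative. In RNA-seq ISG15 had 20.3 and 23.4 CPM in cycling and 26.8, 20.6 and 11.2 CPM in quiescent libraries. The values were 29.5, 45 and 31.5 CPM after irradiation and 37.8, 41.1 and 35.5 CPM after etoposide. There the irradiated difference from cycling cells missed the threshold, at 0.69 ± 0.28 (SE, adjusted p = 0.0709), and that of etoposide, 0.81 ± 0.28 (SE, adjusted p = 0.0402), was lost under 5 of 11 alternatives (adjusted p of up to 0.22). UBE2L6, the enzyme that conjugates ISG15, had RNA of 61.1 and 65.5 CPM in cycling and 101, 78.6 and 68.1 CPM in quiescent libraries. In irradiated libraries there were 110.1, 119 and 101 CPM and in etoposide-treated libraries 69.7, 77.5 and 83.7 CPM. It rose after irradiation by 0.80 ± 0.16 (SE, adjusted p = 0.00156) on the log2 scale, under every alternative, and its footprints did not pass the test at 0.49 ± 0.27 (SE, adjusted p = 0.162).

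HERC5, the main ligase for ISG15, was near the limit of detection in cycling cells, with 0 and 3 counts in RNA-seq. Its RNA had 0 and 0.156 CPM in cycling and 0.262, 0.453 and 0.605 CPM in quiescent libraries. Irradiation gave 1.48, 0.626 and 0.904 CPM and etoposide 0.594, 0.59 and 0.701 CPM. The ratio of summed levels was 15.7 (exact 95% interval 5.17 to 77.7) after irradiation and 9.84 (3.22 to 49.0) after etoposide, with an adjusted p of 0.00331 and 0.0131 in edgeR. The first call was lost without cycling replicate 1 (adjusted p of up to 0.0537) and the second was lost without cycling replicate 1 (adjusted p of up to 0.153). HERC5 footprints rose from 0.104, 0.577 and 0.213 CPM in cycling to 1.75, 1.4 and 1.91 CPM in etoposide-treated cells, a log2 fold change of 2.32 ± 0.63 (SE, adjusted p = 0.0121) that held under every alternative. In irradiated cells they had 1.23, 0.756 and 1.71 CPM, a change of 1.91 ± 0.71 (SE, adjusted p = 0.0484), lost under 7 of 12 alternatives (adjusted p of up to 0.148). HERC6, its relative, had RNA of 2.99 and 3.06 CPM in cycling and 4.47, 5.12 and 6.17 CPM in irradiated libraries, a change of 0.80 ± 0.29 (SE, adjusted p = 0.0471) that was lost under 6 of 11 alternatives (adjusted p of up to 0.196).

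USP18 removes ISG15 and also damps the interferon receptor. Its RNA had 12.8 and 12.5 CPM in cycling and 18.9, 16.5 and 24.9 CPM in quiescent libraries. Irradiated libraries had 9.29, 9.31 and 9.59 CPM and etoposide-treated libraries 8.42, 9 and 8.01 CPM. All senescent libraries were below all cycling ones, and all quiescent libraries were above them. The clearest differences were from quiescent cells, with log2 fold changes of -1.10 ± 0.16 (SE, adjusted p = 0.000403) for irradiated and -1.25 ± 0.16 (SE, adjusted p = 5.48e-05) for etoposide-treated cells under every alternative. Against cycling cells USP18 was lower after etoposide, -0.58 ± 0.18 (SE, adjusted p = 0.0228), and higher in quiescence, 0.67 ± 0.18 (SE, adjusted p = 0.0238), and these calls were in turn lost without cycling replicate 1 or 2 or etoposide replicate 1 or 3 (adjusted p of up to 0.118) and lost without cycling replicate 1 or 2 or with the replicate block or with only these states in the fit (adjusted p of up to 0.141). TRIM25, a ligase for ISG15 and for the RNA sensor pathway, was not called in RNA-seq in any comparison, where its range without thapsigargin was 43.6 to 84 CPM. Its footprints were 109, 113 and 103 CPM in quiescent and 78.7, 80.2 and 79.7 CPM in etoposide-treated cells, a difference of -0.45 ± 0.09 (SE, adjusted p = 0.00236) held under every alternative. Against the cycling footprints, 102, 93.6 and 104 CPM, the etoposide difference was -0.33 ± 0.10 (SE, adjusted p = 0.0161), lost under 5 of 12 alternatives (adjusted p of up to 0.0732).

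The IFIT proteins bind viral RNA ends and the translation machinery. The 4 genes lie in 1 cluster on chromosome 10 (GRCh38.p14), with IFIT2 at chr10:89302046-89309271, IFIT3 at chr10:89327997-89340968, IFIT1 at chr10:89392623-89406487 and IFIT5 at chr10:89414568-89420997. IFIT2 had 8.4 and 8.61 CPM in cycling and 16.5, 11.4 and 14 CPM in quiescent RNA-seq libraries. The values were 24.7, 26.9 and 23.8 CPM after irradiation and 11.3, 12.7 and 13.2 CPM after etoposide. The irradiated libraries were above all others, with a log2 fold change over cycling of 1.56 ± 0.17 (SE, adjusted p = 1.43e-05) in RNA-seq and 1.73 ± 0.24 (SE, adjusted p = 7.56e-05) in Ribo-seq under every alternative. The smaller rise after etoposide, 0.55 ± 0.17 (SE, adjusted p = 0.0219) in RNA-seq, was lost without cycling replicate 1 or 2 or etoposide replicate 2 or 3 (adjusted p of up to 0.129). The Ribo-seq rise after etoposide, 0.78 ± 0.24 (SE, adjusted p = 0.0202), was lost without cycling replicate 1 or etoposide replicate 2 or 3 (adjusted p of up to 0.0838). In quiescent cells IFIT2 footprints rose by 0.97 ± 0.23 (SE, adjusted p = 0.00815) on the log2 scale under every alternative.

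IFIT3 RNA had 16.5 and 14 CPM in cycling and 21.8, 16.9 and 18.8 CPM in quiescent libraries. In irradiated libraries there were 27, 28.5 and 24.8 CPM and in etoposide-treated libraries 19.1, 18.7 and 16.7 CPM. It rose after irradiation by 0.81 ± 0.17 (SE, adjusted p = 0.00215) on the log2 scale, under every alternative, and its footprints gave 0.52 ± 0.25 (SE, adjusted p = 0.115). IFIT1 RNA had 12.7 and 20.2 CPM in cycling, 12, 9.25 and 19.8 CPM in quiescent, 20.2, 21.9 and 20 CPM in irradiated and 13.2, 7.7 and 10 CPM in etoposide-treated libraries, and was not called against cycling cells in an arrested state. IFIT5, with 37.4 to 60.2 CPM over all RNA-seq libraries, was not called in any comparison of either type.

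Of the IFI genes, whose shared name records only their induction by interferon, IFI44L rose after etoposide. Its RNA had 0.475 and 1.09 CPM in cycling and 2.77, 1.7 and 2.78 CPM in quiescent libraries. Irradiation gave 1.71, 1.72 and 1.57 CPM and etoposide 3.22, 2.21 and 3.34 CPM. The cycling libraries were below all arrested ones. The RNA change after etoposide, 1.95 ± 0.43 (SE, adjusted p = 0.00317), was lost without cycling replicate 1 (adjusted p of up to 0.0675), while the footprint change, 2.24 ± 0.48 (SE, adjusted p = 0.00319), held under every alternative. IFI6, a small mitochondrial and endoplasmic reticulum protein that delays cell death, had footprints of 29.5, 25.2 and 29.9 CPM in cycling and 4.69, 7.8 and 17.2 CPM in quiescent cells. Irradiated cells had 12.3, 16.6 and 9.99 CPM and etoposide-treated cells 27.9, 20.2 and 20.1 CPM. Its footprints fell in quiescence by -1.51 ± 0.35 (SE, adjusted p = 0.00765) and after irradiation by -1.14 ± 0.38 (SE, adjusted p = 0.0273). The first call was lost with only these states in the fit (adjusted p of up to 0.0585), and the second was lost without cycling replicate 1 or 3 or irradiated replicate 1 or 3 (adjusted p of up to 0.112). IFI6 RNA was higher in etoposide-treated than in quiescent cells, 4.65, 4.16 and 3.45 against 1.83, 1.85 and 1.09 CPM, at 1.35 ± 0.29 (SE, adjusted p = 0.00244). IFI35 footprints were lower in etoposide-treated cells, 32.6, 26.3 and 28.5 CPM, than in cycling cells, 44.9, 41.2 and 43.8 CPM, at -0.57 ± 0.13 (SE, adjusted p = 0.00407) under every alternative. IFI44 RNA was 6.21, 5.59 and 6.98 CPM in quiescent and 4.58, 3.36 and 3.34 CPM in etoposide-treated cells, at -0.74 ± 0.20 (SE, adjusted p = 0.00868), also under every alternative. IFI27 stayed below 1 CPM in every RNA-seq library and was not called.

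The OAS enzymes sense double-stranded RNA and make oligoadenylates as second messengers. OAS3 fell in both senescent states, and of its neighbours only OAS2 was called, higher after irradiation and from very low levels. OAS1, OAS3 and OAS2 follow each other on chromosome 12, at chr12:112906962-112933219, chr12:112938474-112973251 and chr12:112978519-113011723 (GRCh38.p14). OAS3 had 11.8 and 13.4 CPM in cycling and 8.98, 13.8 and 8.51 CPM in quiescent RNA-seq libraries. The values were 6.1, 6.29 and 5.03 CPM after irradiation and 2.76, 3.54 and 4.91 CPM after etoposide. Both senescent groups were below every cycling and quiescent library. The log2 fold changes over cycling were -1.11 ± 0.25 (SE, adjusted p = 0.00376) and -1.74 ± 0.25 (SE, adjusted p = 0.000142) in RNA-seq and -1.21 ± 0.29 (SE, adjusted p = 0.00496) and -1.72 ± 0.29 (SE, adjusted p = 0.000442) in Ribo-seq for irradiated and etoposide-treated cells, and all 4 held under every alternative. OAS2 was low throughout, with 0.146 and 0 CPM in cycling and 0.303, 0.977 and 0.747 CPM in irradiated RNA-seq libraries. It was called higher after irradiation at 2.95 ± 1.01 (SE, adjusted p = 0.0365), a call lost under 5 of 11 alternatives (adjusted p of up to 0.186). OAS1 had 0 to 0.472 CPM over all RNA-seq libraries and was not called. OASL was below the count filter in RNA-seq. In Ribo-seq it had 0.207, 0.144 and 0.213 CPM in cycling and 0.701, 1.87 and 2.08 CPM in etoposide-treated cells, at 2.99 ± 0.89 (SE, adjusted p = 0.0202), lost without cycling replicate 1 or 2 or etoposide replicate 2 or 3 (adjusted p of up to 0.0726).

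TRIM22, an antiviral ubiquitin ligase, was higher in each arrested state. Its RNA was 39.1 and 34 CPM in cycling and 54.8, 52.3 and 60.2 CPM in quiescent libraries. In irradiated libraries there were 83.3, 92.2 and 78.2 CPM and in etoposide-treated libraries 108, 90.7 and 79.4 CPM. The 3 ranges of cycling, quiescent and senescent libraries did not overlap. Footprints showed the same order, with 64.1, 70.8 and 60.2, 116, 105 and 95.5, 182, 194 and 169.9 and 201, 183 and 188 CPM. The log2 fold changes over cycling were 1.21 ± 0.16 (SE, adjusted p = 5.8e-05) after irradiation and 1.34 ± 0.16 (SE, adjusted p = 2.3e-05) after etoposide in RNA-seq, and 1.48 ± 0.10 (SE, adjusted p = 1.64e-07) and 1.55 ± 0.10 (SE, adjusted p = 6.56e-08) in Ribo-seq. Against quiescent cells they were 0.60 ± 0.13 (SE, adjusted p = 0.00741) and 0.73 ± 0.13 (SE, adjusted p = 0.000743) in RNA-seq, and these 6 calls held under every alternative.

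SAMD9, a factor that restricts poxviruses, fell in senescent cells, and its neighbour on chromosome 7, SAMD9L, was not called lower. SAMD9 (chr7:93099518-93117979) had 43.5 and 37 CPM in cycling and 38.5, 40.8 and 34 CPM in quiescent RNA-seq libraries. Irradiation gave 27, 23 and 29.3 CPM and etoposide 20.8, 15 and 17 CPM. All senescent libraries were below all cycling and quiescent ones. The change after etoposide was -1.20 ± 0.17 (SE, adjusted p = 0.000149) in RNA-seq and -1.19 ± 0.24 (SE, adjusted p = 0.00155) in Ribo-seq, each under every alternative. After irradiation it was -0.61 ± 0.17 (SE, adjusted p = 0.0155) in RNA-seq, lost without cycling replicate 1 or irradiated replicate 2 (adjusted p of up to 0.154), and -0.90 ± 0.24 (SE, adjusted p = 0.00863) in Ribo-seq, lost without irradiated replicate 3 (adjusted p of up to 0.056). SAMD9L (chr7:93130056-93148385) had 15.5 and 15 CPM in cycling, 18.8, 25.9 and 24.1 CPM in quiescent, 21.9, 23.1 and 24.4 CPM in irradiated and 22, 17.2 and 17.2 CPM in etoposide-treated RNA-seq libraries, and its rise after irradiation, 0.60 ± 0.18 (SE, adjusted p = 0.0223), was lost without cycling replicate 1 or 2 or irradiated replicate 3 (adjusted p of up to 0.116).

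MX1, a GTPase that traps viral particles, had RNA of 2.77 and 2.59 CPM in cycling and 3.93, 3.96 and 2.9 CPM in quiescent libraries. Irradiated libraries had 4.44, 5.12 and 4.24 CPM and etoposide-treated libraries 2.48, 2.63 and 2.29 CPM. The irradiated libraries were above all of the others, and the change over cycling, 0.77 ± 0.21 (SE, adjusted p = 0.012), was lost without cycling replicate 1 or 2 (adjusted p of up to 0.0822). ISG20, an exonuclease, had footprints of 3.52, 4.83 and 3.31 CPM in cycling and 0.878, 0.378 and 1.43 CPM in irradiated cells, a fall of -2.07 ± 0.49 (SE, adjusted p = 0.00446) on the log2 scale under every alternative. PLSCR1, a membrane-bound inhibitor of viral entry, had RNA of 29.6, 27.1 and 36.7 CPM in quiescent and 21.9, 15.6 and 18.8 CPM in etoposide-treated libraries, at -0.73 ± 0.17 (SE, adjusted p = 0.00447) under every alternative. RSAD2 (viperin) and BST2 (tetherin), often used as readouts of interferon signalling, were close to 0. RSAD2 had 0 to 0.274 CPM and BST2 0 to 0.469 CPM over all RNA-seq libraries. EPSTI1 had 1.3 to 3.95 CPM and was not called in RNA-seq. CMPK2 and SAMHD1, which act on nucleotides, had 0 to 0.536 and 36.6 to 53.8 CPM and were not called in any comparison.

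PARP9 and DTX3L form a complex of an ADP-ribosyltransferase and a ubiquitin ligase that supports interferon-driven transcription, and PARP14 is a related enzyme from the same stretch of chromosome 3. PARP9 (chr3:122527924-122564784) and DTX3L (chr3:122564338-122575203) overlap at their starts on opposite strands, and the counts used are strand-specific. PARP9 had 29.2 and 27.9 CPM in cycling and 32.1, 27.1 and 38.4 CPM in quiescent RNA-seq libraries. The values were 29.7, 27.7 and 24.2 CPM after irradiation and 18.8, 14.6 and 15.5 CPM after etoposide. DTX3L had 70.6 and 63.2 CPM in cycling and 79.9, 77.4 and 66 CPM in quiescent libraries. In irradiated libraries there were 67.8, 56.8 and 62.5 CPM and in etoposide-treated libraries 43.1, 48.2 and 42.6 CPM. For both genes the etoposide libraries lay below every cycling, quiescent and irradiated library. The change after etoposide against cycling was -0.81 ± 0.16 (SE, adjusted p = 0.00189) for PARP9 and -0.58 ± 0.12 (SE, adjusted p = 0.00252) for DTX3L in RNA-seq, held under every alternative. Their footprints changed by -0.52 ± 0.13 (SE, adjusted p = 0.00708), also under every alternative, and by -0.37 ± 0.11 (SE, adjusted p = 0.0205), lost without cycling replicate 3 or etoposide replicate 1 or 3 (adjusted p of up to 0.0829). PARP14 had 72 and 70.6 CPM in cycling and 92.9, 89.5 and 90.6 CPM in quiescent RNA-seq libraries. Irradiation gave 88.1, 84.6 and 91.1 CPM and etoposide 73, 58.9 and 64.9 CPM. Against quiescent cells PARP14 was lower after etoposide at -0.47 ± 0.10 (SE, adjusted p = 0.00204), under every alternative.

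The senescence inducers were then compared directly, irradiated against etoposide-treated cells. In RNA-seq 11 of the 43 members were higher in irradiated cells and 1 was lower, against 9.68% and 12.9% of all genes, and the members' median difference was 0.41 against 0.06 over all genes on the log2 scale. The higher members were DTX3L, IFIT1, IFIT2, IFIT3, MX1, PARP14, PARP9, SAMD9, STAT2, UBE2L6 and XAF1. In Ribo-seq IFI35, IFIT2, PARP9 and STAT2 were higher and IFI44L and LGALS3BP lower, 4 and 2 of 38 members against 7.77% and 13.9% of all genes. The Ribo-seq count of 6 (21.7% of all genes called in either direction) was 13 without the thapsigargin libraries in the fit (28.0% of all genes), 15 with only these states (35.6%) and 2 without irradiated replicate 1 (12.8%). The RNA-seq count of 12 (22.6% of all genes) was 19 with only these states (33.8%), 7 without irradiated replicate 1 (14.2%) and 7 without etoposide replicate 2 (13.9%).

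The largest RNA differences were those of XAF1, IFIT2 and IFIT1. XAF1, a pro-apoptotic antagonist of XIAP, had 5.76, 6.02 and 7.39 CPM in irradiated and 3.5, 2.27 and 2.13 CPM in etoposide-treated RNA-seq libraries, a difference of 1.29 ± 0.31 (SE, adjusted p = 0.00871). IFIT2 differed by 1.02 ± 0.14 (SE, adjusted p = 0.000401) in RNA-seq and 0.95 ± 0.23 (SE, adjusted p = 0.0108) in Ribo-seq. IFIT1 RNA had 20.2, 21.9 and 20 CPM against 13.2, 7.7 and 10 CPM, a difference of 1.01 ± 0.30 (SE, adjusted p = 0.0259) that was lost under 5 of 12 alternatives (adjusted p of up to 0.119). In RNA-seq the irradiated and etoposide-treated libraries did not overlap for any of these genes. XAF1 footprints, 4.39, 1.89 and 5.43 CPM in irradiated and 2.1, 1.87 and 1.39 CPM in etoposide-treated cells, overlapped and were not called. MX1 differed by 0.90 ± 0.18 (SE, adjusted p = 0.00355) and PARP9 by 0.74 ± 0.15 (SE, adjusted p = 0.00316) in RNA-seq, and with XAF1, IFIT2 and DTX3L these were the RNA-seq differences that held under every alternative. STAT2 differed by 0.37 ± 0.09 (SE, adjusted p = 0.0117), lost without etoposide replicate 2 (adjusted p of up to 0.0723) in RNA-seq and by 0.44 ± 0.10 (SE, adjusted p = 0.00579), held under every alternative in Ribo-seq. IFIT3 RNA differed by 0.56 ± 0.15 (SE, adjusted p = 0.0141), lost without irradiated replicate 1 or 2 or etoposide replicate 3 (adjusted p of up to 0.0651), that of SAMD9 by 0.59 ± 0.16 (SE, adjusted p = 0.0174), lost without irradiated replicate 1 or 3 or etoposide replicate 2 or 3 (adjusted p of up to 0.0904), that of UBE2L6 by 0.51 ± 0.14 (SE, adjusted p = 0.0164), lost without irradiated replicate 1 or 2 or etoposide replicate 1 or 2 (adjusted p of up to 0.0783) and that of PARP14 by 0.42 ± 0.10 (SE, adjusted p = 0.00806), lost without etoposide replicate 2 (adjusted p of up to 0.0532). IFI35, whose footprints were 44.2, 42.3 and 50.5 CPM after irradiation and 32.6, 26.3 and 28.5 CPM after etoposide, differed by 0.65 ± 0.14 (SE, adjusted p = 0.00398), held under every alternative. The IFIT2 difference in Ribo-seq was lost without irradiated replicate 1 (adjusted p of up to 0.0639), and that of PARP9 footprints, 0.55 ± 0.14 (SE, adjusted p = 0.0109), was lost without irradiated replicate 1 (adjusted p of up to 0.0648).

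LGALS3BP, a secreted galectin-binding glycoprotein, went the other way. It had 45.2, 60.3 and 38.9 CPM in irradiated and 79.4, 77.7 and 91.9 CPM in etoposide-treated RNA-seq libraries, without overlap, a difference of -0.79 ± 0.22 (SE, adjusted p = 0.0191). Its footprints had 92.3, 105 and 93.7 against 232, 189 and 196 CPM, at -1.09 ± 0.29 (SE, adjusted p = 0.0148). The RNA call was lost without irradiated replicate 1 or 3 or etoposide replicate 3 (adjusted p of up to 0.0915) and the footprint call was lost without irradiated replicate 1 or 3 or etoposide replicate 1 (adjusted p of up to 0.062). IFI44L footprints were 0.527, 0.378 and 0.857 CPM after irradiation and 1.23, 2.65 and 2.6 CPM after etoposide, at -1.85 ± 0.58 (SE, adjusted p = 0.0368), lost under 7 of 12 alternatives (adjusted p of up to 0.151). ISG15 and TRIM22 differed between the inducers by -0.11 ± 0.24 and -0.13 ± 0.13 in RNA-seq and were not called there. PTPRC, a marker of leukocytes, had 0.734, 0.738 and 0.701 CPM in the etoposide RNA-seq libraries and 0 to 0.151 CPM in those of the other states. CD14, a monocyte marker, had footprints of 1.4, 2.33 and 1.91 CPM in etoposide-treated and 0 to 1.13 CPM in all other libraries. The part of leukocyte RNA in the differences between the inducers was not tested.

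**Figure D3:**
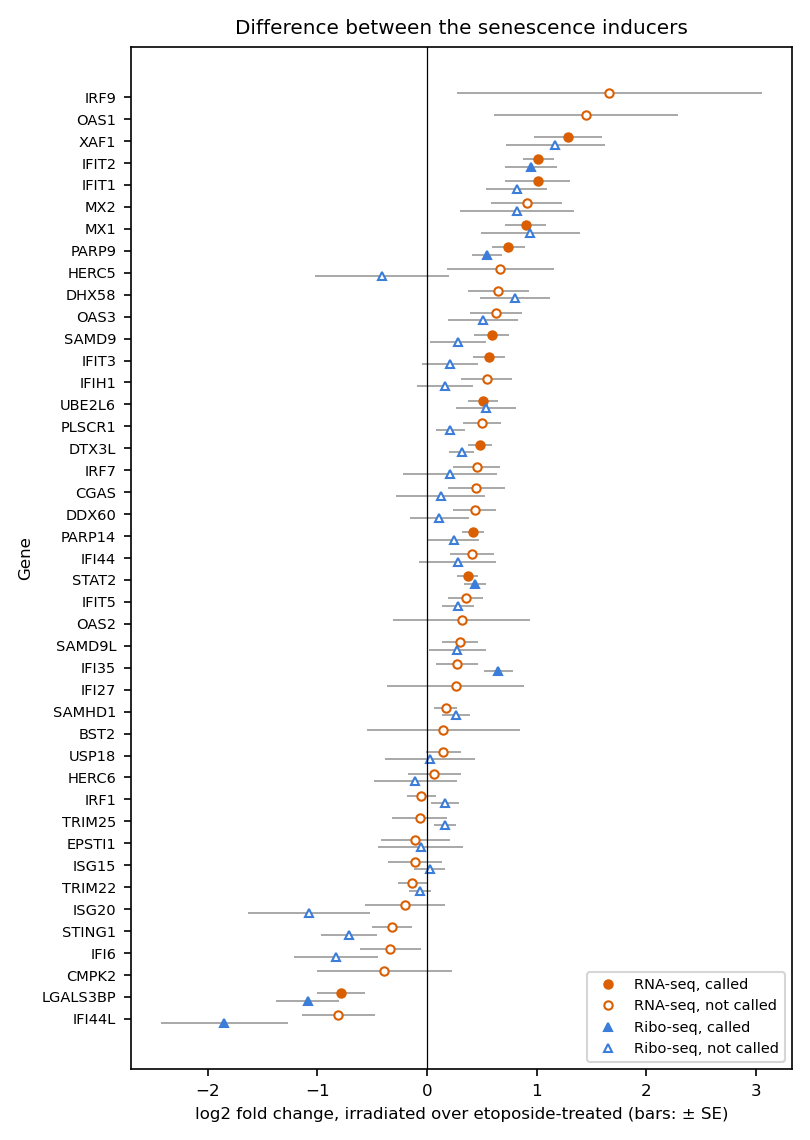
Log2 fold change of irradiated over etoposide-treated cells for the 43 members tested in RNA-seq, sorted by the RNA-seq value, with RNA-seq in orange circles, Ribo-seq in blue triangles, filled where called, and bars of ± 1 SE. Most members lie to the right of 0, XAF1 at 1.29 is the highest called value, and LGALS3BP and IFI44L lie on the left.

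The quiescent group is labelled as arrested by contact inhibition and not as senescent, though its RNA-seq replicate 2 had a cycling level of MKI67. Against cycling cells 7 members rose in RNA-seq (IFI44L, IFIT2, PARP14, SAMD9L, STAT2, TRIM22 and USP18) and STING1 fell, where 5.18% of all genes rose and 10.4% fell. IFI44L changed by 1.67 ± 0.43 (SE, adjusted p = 0.0182), lost without cycling replicate 1 or with only these states in the fit (adjusted p of up to 0.238). IFIT2 changed by 0.72 ± 0.17 (SE, adjusted p = 0.0113), lost without cycling replicate 1 or 2 or with only these states in the fit (adjusted p of up to 0.105), TRIM22 by 0.61 ± 0.15 (SE, adjusted p = 0.0165), lost without cycling replicate 1 or 2 or with only these states in the fit (adjusted p of up to 0.153), SAMD9L by 0.59 ± 0.18 (SE, adjusted p = 0.0465), lost under 7 of 11 alternatives (adjusted p of up to 0.205) and PARP14 by 0.35 ± 0.11 (SE, adjusted p = 0.0496), lost under 9 of 11 alternatives (adjusted p of up to 0.22). The count of 8 (15.6% of all genes called) fell to 1 with only these states in the fit (5.99%) and to 5 with the replicate block (13.8%). Without cycling replicate 1 or 2, which leaves 1 cycling library, fewer members and fewer of all genes were called. STAT2 was the only call of the 8 that held under every alternative. In Ribo-seq IFIT2, IRF1, MX2, PLSCR1, STAT2 and TRIM22 rose and IFI6 and STING1 fell, against 7.09% and 14.6% of all genes. TRIM22 footprints changed by 0.70 ± 0.10 (SE, adjusted p = 0.000557), held under every alternative and those of STAT2 by 0.74 ± 0.10 (SE, adjusted p = 0.000379), held under every alternative. MX2, a relative of MX1 that acts at the nuclear pore, had footprints of 0.415, 0.793 and 0.64 CPM in cycling and 1.66, 1.1 and 1.59 CPM in quiescent cells, at 1.19 ± 0.37 (SE, adjusted p = 0.0384), lost under 9 of 12 alternatives (adjusted p of up to 0.143). With the replicate number as a block its value was 1.20 (adjusted p = 0.0626). PLSCR1 footprints were 49.7, 57.9 and 47.9 CPM in cycling and 75, 64.1 and 62.8 CPM in quiescent cells, at 0.37 ± 0.12 (SE, adjusted p = 0.0414), lost under 6 of 12 alternatives (adjusted p of up to 0.129), and with the block at 0.37 (adjusted p = 0.0563). The Ribo-seq count of 8 (21.7% of all genes called) was 16 without the thapsigargin libraries in the fit (31.0% of all genes) and 5 with only these states (15.8%).

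Senescent cells were also compared with quiescent cells. After irradiation DHX58, IFI6, IFIT2, IFIT3, ISG15 and TRIM22 were higher in RNA-seq and OAS3, SAMD9 and USP18 lower, 6 and 3 of 43 against 9.01% and 9.71% of all genes. IFIT2 differed by 0.84 ± 0.14, ISG15 by 0.85 ± 0.25, DHX58 by 1.12 ± 0.29, IFI6 by 1.02 ± 0.30, IFIT3 by 0.48 ± 0.15, SAMD9 by -0.52 ± 0.16 and OAS3 by -0.84 ± 0.23 on the log2 scale (± SE), and of these only the IFIT2 call held under every alternative. The 9 calls (18.7% of all genes in either direction) were 4 without quiescent replicate 2 (13.8%), the library with a cycling level of MKI67. They were 4 without irradiated replicate 2 (10.8%), 5 without irradiated replicate 1 (11.7%), 5 without irradiated replicate 3 (11.6%) and 6 with only these states (14.4%). After etoposide IFI6, ISG15, LGALS3BP and TRIM22 were higher and CGAS, DTX3L, IFI44, IRF7, IRF9, MX1, OAS3, PARP14, PARP9, PLSCR1, SAMD9, USP18 and XAF1 lower. OAS3 differed by -1.47 ± 0.23, SAMD9 by -1.10 ± 0.16, DTX3L by -0.74 ± 0.11 and ISG15 by 0.96 ± 0.25, each under every alternative, while the LGALS3BP difference was 0.63 ± 0.22 (SE, adjusted p = 0.0324), lost without quiescent replicate 1 or etoposide replicate 1 or 2 or 3 (adjusted p of up to 0.103). These are 4 and 13 of 43, against 21.1% and 20.6% of all genes (41.7% in either direction), and the count was 15 in place of 17 without quiescent replicate 2. In Ribo-seq DHX58, IFIT2, ISG15 and TRIM22 were higher and ISG20 and SAMD9 lower after irradiation (background 6.92% and 7.62%). TRIM22 differed by 0.78 ± 0.10 (SE, adjusted p = 0.00014), held under every alternative. The other differences were 0.76 ± 0.22 (SE, adjusted p = 0.037) for IFIT2, 0.53 ± 0.14 (SE, adjusted p = 0.0218) for ISG15, 1.02 ± 0.29 (SE, adjusted p = 0.0327) for DHX58, -0.99 ± 0.24 (SE, adjusted p = 0.0135) for SAMD9 and -1.65 ± 0.50 (SE, adjusted p = 0.0404) for ISG20, each lost under at least 1 alternative. With the replicate block DHX58 was at 1.02 (adjusted p = 0.0505) and ISG20 at -1.65 (adjusted p = 0.0615), which left 4 calls. The count of 6, with 4 higher and 2 lower, stood beside 14.5% of all genes. It was 1 (higher) without quiescent replicate 2 (8.36% of all genes) and 2 without irradiated replicate 1 (7.98%), 2 (9.19%) or 3 (9.39%). It was 4 higher and 6 lower without quiescent replicate 1 (20.7%), 4 higher and 7 lower without the thapsigargin libraries (21.9%), and 1 higher and 4 lower without a count filter (9.13%). After etoposide HERC5, IFI6, ISG15 and TRIM22 had more footprints than in quiescent cells, and DTX3L, IFI35, OAS3, PARP9, PLSCR1, SAMD9, TRIM25, USP18 and XAF1 fewer, against 19.2% and 16.1% of all genes. In these footprints TRIM22 differed by 0.85 ± 0.10, OAS3 by -1.38 ± 0.29, SAMD9 by -1.27 ± 0.23, PARP9 by -0.55 ± 0.13, DTX3L by -0.59 ± 0.11 and IFI35 by -0.58 ± 0.13, each under every alternative. HERC5 differed by 1.89 ± 0.55 (SE, adjusted p = 0.0172), lost without etoposide replicate 1 or 3 (adjusted p of up to 0.0615). USP18 differed by -1.07 ± 0.36 (SE, adjusted p = 0.0331), lost without quiescent replicate 3 or etoposide replicate 1 or 2 or 3 (adjusted p of up to 0.131). ISG15 footprints differed by 0.51 ± 0.14 (SE, adjusted p = 0.0115), lost without quiescent replicate 2 or etoposide replicate 2 (adjusted p of up to 0.0542). IFI6 footprints differed by 1.20 ± 0.35 (SE, adjusted p = 0.0171), lost without quiescent replicate 2 or etoposide replicate 1 or with only these states in the fit (adjusted p of up to 0.0939). PLSCR1 footprints differed by -0.42 ± 0.12 (SE, adjusted p = 0.016), lost without quiescent replicate 1 or etoposide replicate 2 (adjusted p of up to 0.0766). XAF1 footprints differed by -1.40 ± 0.40 (SE, adjusted p = 0.0141), lost without etoposide replicate 3 (adjusted p of up to 0.063). XAF1 RNA had 6.14, 5.89 and 10.5 CPM in quiescent cells, and the etoposide difference from it was -1.52 ± 0.31 (SE, adjusted p = 0.00152), under every alternative.

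After 3 h of thapsigargin more members were called lower than higher. In Ribo-seq the share that fell was close to that of all genes. In RNA-seq 12 of 43 members fell (DTX3L, IFI35, IFI44, IFIH1, IFIT1, ISG20, LGALS3BP, MX2, PARP14, PARP9, SAMD9 and UBE2L6) and HERC5 rose, where 12.8% of all genes fell and 11.7% rose. The members' median log2 fold change was -0.43, against -0.03 over all genes. It was -0.40 with OAS1, which had 0 counts after treatment and no bound, set to no change. In Ribo-seq 11 of 38 fell (DDX60, DTX3L, IFI35, IFI44, IFIT1, IFIT2, IFIT3, IRF7, LGALS3BP, PARP9 and STAT2) and MX1, TRIM22 and TRIM25 rose, against 24.4% and 20.0% of all genes (44.4% in either direction). The Ribo-seq median was -0.48, against -0.11 over all genes. In a further version 5 genes at 0 counts after treatment were reset, which gave -0.33. IRF7 was set to its bound, and HERC5, MX2, IFI44L and OASL, which have no bound, were set to no change. In RNA-seq the 13 calls (24.5% of all genes in either direction) were 4 with only these states (11.6%). Without cycling replicate 1 or 2, which leaves 1 cycling library, fewer members and fewer of all genes were called. In Ribo-seq the 14 calls were 7 with only these states (30.2% of all genes).

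IFIT1 had the lowest log2 value of the members called in RNA-seq. Its RNA had 12.7 and 20.2 CPM in untreated and 4.83 and 2.62 CPM in thapsigargin-treated libraries, and its footprints 25.4, 41.1 and 23.3 against 0.545 and 5.74 CPM, without overlap in either. The log2 fold changes were -2.15 ± 0.38 (SE, adjusted p = 0.00139) and -3.23 ± 0.49 (SE, adjusted p = 0.000198), each under every alternative. PARP9 RNA had 12.9 and 12 CPM and DTX3L RNA 40.9 and 41.4 CPM after thapsigargin, changes from untreated cells of -1.20 ± 0.18 (SE, adjusted p = 0.000482) and -0.70 ± 0.14 (SE, adjusted p = 0.00255), and their footprints changed by -1.09 ± 0.17 (SE, adjusted p = 0.00028) and -1.12 ± 0.15 (SE, adjusted p = 6.23e-05). These 4 calls held under every alternative, as did that of SAMD9 RNA (22.7 and 17 CPM) at -1.02 ± 0.19 (SE, adjusted p = 0.00219). PARP14 RNA (47.2 and 42.6 CPM) changed by -0.67 ± 0.12 (SE, adjusted p = 0.00173), lost with only these states in the fit (adjusted p of up to 0.0525).

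Other thapsigargin calls in RNA-seq were lost under at least 1 alternative. LGALS3BP RNA had 26.4 and 33.6 CPM, at -0.87 ± 0.27 (SE, adjusted p = 0.0304), lost without cycling replicate 1 or 2 or thapsigargin replicate 1 or with only these states in the fit (adjusted p of up to 0.193). Its footprints, 46.3 and 50.6 CPM, changed by -1.43 ± 0.36 (SE, adjusted p = 0.00589), lost without thapsigargin replicate 1 (adjusted p of up to 0.055). IFI44 RNA had 2.73 and 1.79 CPM, at -1.01 ± 0.25 (SE, adjusted p = 0.00997), lost without cycling replicate 2 or thapsigargin replicate 2 or with only these states in the fit (adjusted p of up to 0.09). UBE2L6 RNA had 37.9 and 41.1 CPM, at -0.68 ± 0.17 (SE, adjusted p = 0.011), lost without cycling replicate 2 or with only these states in the fit (adjusted p of up to 0.0753). IFI35 RNA had 11 and 13 CPM untreated and 5.61 and 8.62 CPM treated, at -0.75 ± 0.24 (SE, adjusted p = 0.0354), lost without cycling replicate 1 or 2 or thapsigargin replicate 1 or with only these states in the fit (adjusted p of up to 0.193), and IFIH1 RNA, with 3.51 and 2.32 CPM treated, changed by -0.98 ± 0.29 (SE, adjusted p = 0.0265), lost without cycling replicate 1 or 2 or thapsigargin replicate 2 or with only these states in the fit (adjusted p of up to 0.174). ISG20 RNA, 1.79 and 1.87 CPM untreated and 0.658 and 0.632 CPM treated, changed by -1.50 ± 0.43 (SE, adjusted p = 0.0231) and was lost under 5 of 9 alternatives (adjusted p of up to 0.0946). MX2 RNA, 0.803 and 1.14 CPM untreated and 0.317 and 0.474 CPM treated, changed by -1.25 ± 0.42 (SE, adjusted p = 0.0427) and was lost under 6 of 9 alternatives (adjusted p of up to 0.235). HERC5 RNA, 1.1 and 0.544 CPM after thapsigargin, had a ratio of 12.1 to untreated cells (exact 95% interval 3.98 to 59.8) from 76 against 3 counts, and a call lost without cycling replicate 1 or with only these states in the fit (adjusted p of up to 0.117).

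In Ribo-seq IRF7 had 0 counts in both thapsigargin libraries and 65 in the 3 untreated ones, which makes it at least 2.47-fold lower when 3 counts are allowed for the treated group. Of the other members tested, HERC5, MX2, IFI44L and OASL also had 0 footprints there, and their untreated levels were under that floor, so no fold is given. IFIT2 footprints were 6.94, 9.37 and 8.86 CPM untreated and 1.63 and 4.17 CPM treated, at -1.52 ± 0.43 (SE, adjusted p = 0.011), lost without thapsigargin replicate 1 or with only these states in the fit (adjusted p of up to 0.121). IFIT3 footprints, 26.5, 26.2 and 21.7 against 5.45 and 18.3 CPM, changed by -1.05 ± 0.35 (SE, adjusted p = 0.0264) and the call was lost without cycling replicate 1 or 2 or thapsigargin replicate 1 or with only these states in the fit (adjusted p of up to 0.271). DDX60 footprints, 20.4, 18.7 and 16.3 against 12 and 6.78 CPM, changed by -0.98 ± 0.36 (SE, adjusted p = 0.0383), lost without cycling replicate 1 or 2 or thapsigargin replicate 2 or with only these states in the fit (adjusted p of up to 0.248). STAT2 footprints, 195 and 160.2 CPM after thapsigargin, changed by -0.36 ± 0.11 (SE, adjusted p = 0.0199), lost without cycling replicate 2 or thapsigargin replicate 2 or with only these states in the fit (adjusted p of up to 0.162). MX1 footprints were 14.2 and 2.61 CPM in the treated libraries against 2.8, 3.1 and 3.74 CPM untreated. The call of 1.37 ± 0.49 (SE, adjusted p = 0.0356) rested on thapsigargin replicate 1, without which the value was -0.30 (adjusted p = 0.737). IFI44 footprints were 7.57, 8.8 and 8.22 CPM untreated and 0 and 4.7 CPM treated, at -1.77 ± 0.56 (SE, adjusted p = 0.0205), lost without thapsigargin replicate 1 or with only these states in the fit (adjusted p of up to 0.141). TRIM22 footprints changed by 0.68 ± 0.12 (SE, adjusted p = 0.000487), held under every alternative. TRIM25 footprints were 129 and 159.7 CPM against 102, 93.6 and 104 CPM, a rise of 0.53 ± 0.11 (SE, adjusted p = 0.00152) under every alternative.

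**Figure D4:**
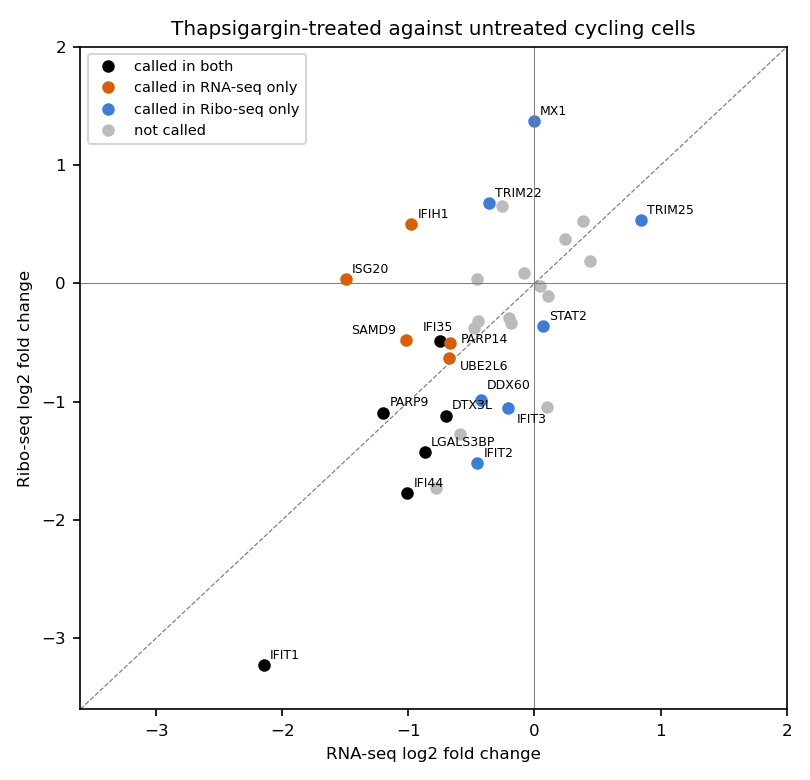
Log2 fold change of thapsigargin-treated over untreated cycling cells in RNA-seq (horizontal) and Ribo-seq (vertical) for 33 members tested in both types, without those at 0 footprints after treatment; colours show in which type a member was called and the dashed line marks equal changes. IFIT1 lies at the lower left, PARP9, DTX3L, IFI44 and LGALS3BP are lower in both, and TRIM22 lies above the line.

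Translation efficiency, the change in footprints beyond the change in RNA, was tested as an interaction over all 27 libraries for the 37 members that passed the count filter. In quiescent, irradiated and etoposide-treated cells against cycling cells, and between the inducers, edgeR called 0 members, and DESeq2 also called 0. Of all genes 0.00%, 0.0256% and 0.0683% were called in the quiescent, irradiated and etoposide comparisons with cycling cells (0.00854% lower in the irradiated one), and 0.00% between the inducers. At an unadjusted p under 0.05 there was 1 member in the irradiated comparison (IFI6) and 0 in the other 3. On the log2 scale the members' median difference from cycling cells was 0.03 for quiescence, -0.05 for irradiation and 0.02 for etoposide. After thapsigargin 20.8% of all genes and 3 of the 37 members were called. TRIM22 gained at 1.07 ± 0.21 (SE, adjusted p = 0.000967), with RNA at 31.6 and 25.4 CPM against 39.1 and 34 CPM untreated and footprints at 107 and 101 CPM against 64.1, 70.8 and 60.2 CPM, and this call held under every alternative. IFIH1 gained at 1.51 ± 0.44 (SE, adjusted p = 0.0172), with RNA falling from 5.91 and 5.5 to 3.51 and 2.32 CPM and footprints of 7.98, 12.3 and 7.68 and 10.4 and 16.2 CPM. That call was lost without cycling RNA-seq replicate 1 or thapsigargin RNA-seq replicate 2 or thapsigargin Ribo-seq replicate 2 or with only these states in the fit (adjusted p of up to 0.116). IRF7 was called lower (adjusted p = 0.00554) with its footprints at 0 after treatment and RNA of 5.24 and 4.76 CPM after thapsigargin. Between 2 and 10 members were called when single libraries were left out, with 7 without thapsigargin Ribo-seq replicate 1 and 10 without replicate 2, and 6 were called by DESeq2.

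The rest of the pathway was followed with a list of 57 genes, from ligands to further targets, of which 40 were tested in RNA-seq and 36 in Ribo-seq. The alternatives were examined for the members only, so calls of these pathway genes were not checked under them. Of the 7 interferon ligand genes only IFNE passed the count filter, with 0.027 to 1.01 CPM over the RNA-seq libraries and no call, and IFNB1 had 0 counts in every library. The receptor genes IFNAR1 and IFNAR2 were not called against cycling cells in RNA-seq in any state. In irradiated cells 4 of the 40 rose in RNA-seq and 3 fell (DNASE2, IFITM1 and PTPN2), against 16.2% and 18.8% of all genes. In etoposide-treated cells 5 of the 40 rose and 6 fell (IFI16, IFITM1, IFITM2, PTPN2, RNASEH2B and SOCS1), against 16.8% and 17.8% of all genes. JAK1 and STAT3, a kinase and a transcription factor of cytokine signalling, were among those that rose in both.

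CXCL10, a chemokine used as an interferon readout, had 7.27, 1.56 and 3.56 CPM in etoposide-treated and 0.275 to 1.02 CPM in cycling, quiescent and irradiated libraries, and rose after etoposide by 2.81 ± 0.70 (SE, adjusted p = 0.00745) on the log2 scale. IFI16, a DNA sensor that works beside cGAS, had 82 and 106 CPM in cycling and 37.5, 37.7 and 55.7 CPM in etoposide-treated libraries, a change of -1.11 ± 0.21 (SE, adjusted p = 0.00102), and 117, 81.1 and 104 CPM after irradiation. IFITM1, which blocks viral entry, had 12.3 and 12.7 CPM in cycling and between 3.93 and 6.71 CPM in the arrested libraries, with changes of -1.06 ± 0.23 (SE, adjusted p = 0.00257) after irradiation and -1.26 ± 0.23 (SE, adjusted p = 0.000753) after etoposide. SOCS1, a feedback inhibitor of the JAK kinases, had 7.7 and 10.7 CPM in cycling, 11.3, 9.27 and 7.74 CPM in irradiated and 4.09, 4.1 and 6.45 CPM in etoposide-treated libraries, and its etoposide change was -0.90 ± 0.27 (SE, adjusted p = 0.0184). In thapsigargin-treated cells 17 of the 40 pathway genes fell in RNA-seq and 1 rose, TICAM1, against 12.8% and 11.7% of all genes. SOCS1 had 1.63 and 1.98 CPM, a change of -2.33 ± 0.31 (SE, adjusted p = 0.00017).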

How the data were processed

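RNA-seq and Ribo-seq libraries of IMR90 cells (13 and 14) were grouped by their titles. The authors deposited 1 table per library of read counts per gene in the layout of STAR. Per the submitters' processing notes, STAR 2.7.10b, bcl2fastq and DESeq2 1.36.0 were used with the human genome build hg38. The roles and settings of these tools are not given in the sources used here. The deposited counts are raw and strand-specific. Column 4 was used for RNA-seq and column 3 for Ribo-seq. Multimapping and ambiguous reads are not assigned to genes, so genes with near-identical copies or same-strand overlaps can be undercounted. The lines that name no gene held 32.5% to 86.3% of a library and were left out.

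The 60534 identifiers shared by all tables were matched to RefSeq by symbol, and 19307 protein-coding genes were kept. Genes were filtered with edgeR 4.0.16 (filterByExpr, minimum count 10), scaled by TMM and tested with the quasi-likelihood test (R 4.3.3), with all 5 states in 1 fit per library type. This left 13291 genes in RNA-seq and 11764 in Ribo-seq. Translation efficiency was an interaction of library type and state over 11713 genes, with TMM within each type. The SE is the absolute log2 fold change divided by the square root of F. Adjustment of p followed Benjamini and Hochberg over every gene tested. The scripts were tested on simulated counts. A member has its values given where it was called and among the 3 largest changes of its role group, or defines the pathway. The members and lists were chosen with earlier results of these data known.

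Alternatives were RLE size factors, no count filter, DESeq2 1.42.0, only the states compared, a replicate block, and each library left out. Every same-numbered pair of Ribo-seq libraries deviated together from the group means (r over 0.1, across genes) for cycling with quiescent (0.183 to 0.321) and quiescent with irradiated cells (0.1004 to 0.187), as did RNA-seq with Ribo-seq libraries after etoposide (0.143 to 0.444), and the numbers were taken to pair the samples there. For quiescent with irradiated cells the unlike-numbered pair of quiescent 2 and irradiated 1 had r = 0.155. This was above same-numbered pairs 1 (0.1004) and 2 (0.142), so the pairing there is uncertain. Added after seeing the data were fits without the thapsigargin libraries, TMM pooled over both library types, and count ratios for genes near 0. The thapsigargin Ribo-seq and all RNA-seq libraries list 62703 genes, and the other Ribo-seq libraries list 60664, so the footprint-to-RNA comparison outside thapsigargin crosses these lists. Some genes of the pathway and marker lists are not reported here.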

Additional observations from a re-analysis of the deposited data

Results flagged for a closer look

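The direct comparison of the senescence inducers is the difference between the irradiation effect and the etoposide effect, since both are measured from the same cycling cells. In RNA-seq 22.6% of all genes passed the test and in Ribo-seq 21.7%. Of the members 12 of 43 passed in RNA-seq and 6 of 38 in Ribo-seq, which gives 18 values. All are log2 differences, irradiated minus etoposide-treated, from edgeR's quasi-likelihood test with Benjamini-Hochberg adjustment and 3 libraries a group. In RNA-seq the difference was 1.29 for XAF1 (adjusted p = 0.00871), 1.02 for IFIT2 (0.000401), 1.01 for IFIT1 (0.0259) and 0.90 for MX1 (0.00355). It was 0.74 for PARP9 (0.00316), 0.59 for SAMD9 (0.0174), 0.56 for IFIT3 (0.0141) and 0.51 for UBE2L6 (0.0164). It was 0.48 for DTX3L (0.00717), 0.42 for PARP14 (0.00806), 0.37 for STAT2 (0.0117) and -0.79 for LGALS3BP (0.0191). In Ribo-seq it was 0.95 for IFIT2 (0.0108), 0.65 for IFI35 (0.00398), 0.55 for PARP9 (0.0109) and 0.44 for STAT2 (0.00579). The Ribo-seq difference was -1.09 for LGALS3BP (0.0148) and -1.85 for IFI44L (0.0368). The calls of XAF1, IFIT2, MX1, PARP9 and DTX3L in RNA-seq and of IFI35 and STAT2 in Ribo-seq held under every alternative. Each of the others was lost under at least 1.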

How the results depend on the processing

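The counts of members called kept within 1.5 times of their value under RLE size factors and without a count filter in every comparison, though without a filter the irradiated against quiescent Ribo-seq calls went from 4 higher and 2 lower to 1 higher and 4 lower. With only the states compared in the fit, the RNA-seq count was 1 in place of 8 for quiescent (5.99% in place of 15.6% of all genes), 26 in place of 17 for irradiated (51.2% in place of 34.9%) and 4 in place of 13 for thapsigargin-treated against cycling cells (11.6% in place of 24.5%), and 19 in place of 12 between the inducers. The Ribo-seq count was then 5 in place of 8 for quiescent and 7 in place of 14 for thapsigargin-treated against cycling cells (30.2% in place of 44.4% of all genes), and 15 in place of 6 between the inducers. Without the thapsigargin libraries the Ribo-seq count was 16 for quiescent against cycling, 11 in place of 6 for irradiated against quiescent and 13 between the inducers. DESeq2 called 10 members in Ribo-seq for irradiated against quiescent cells and 6 in place of 3 in translation efficiency after thapsigargin. The cause of these changes was not tested.

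With the replicate block the RNA-seq count for quiescent against cycling cells was 5 in place of 8, and the other 18 counts stayed within 1.5 times. In the comparisons where the numbers were taken to pair the Ribo-seq libraries, the block ended the MX2, PLSCR1, DHX58 and ISG20 calls and no other. Elsewhere the numbers were not taken to pair the samples. Same-numbered libraries correlated at -0.364 to 0.68 in RNA-seq, at -0.209 to 0.201 in the other Ribo-seq comparisons and at -0.0352 to 0.627 between library types. Quiescent RNA-seq 2 correlated with Ribo-seq 3 at 0.369, and RNA-seq 3 with Ribo-seq 2 at 0.449. Their same-numbered values were 0.105 and -0.000966, so which quiescent Ribo-seq library goes with RNA-seq replicate 2 is uncertain.

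With single libraries left out, the RNA-seq counts ranged from 1 to 9 for quiescent, 8 to 14 for irradiated, 9 to 13 for etoposide and 6 to 13 for thapsigargin against cycling cells. They ranged from 4 to 9 for irradiated and 13 to 18 for etoposide against quiescent cells, and from 7 to 13 between the inducers. The Ribo-seq counts ranged from 6 to 8, 9 to 13, 12 to 14 and 10 to 16 against cycling cells in the same order, from 1 to 10 and 10 to 15 against quiescent cells, and from 2 to 6 between the inducers. Translation efficiency gave 2 to 10 after thapsigargin and 0 to 0 in the other comparisons. Of 169 calls of single members, 84 held under every alternative and 85 were lost under at least 1. The MX1 footprint value after thapsigargin changed sign, to -0.30 (adjusted p = 0.737), without thapsigargin replicate 1, and was 2.14 without replicate 2. The thapsigargin Ribo-seq libraries were the shallowest, and several members had 0 counts there.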
